A study of Homo sapiens with 24 samples.

Results

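Collagens and laminins are secreted chains that build the matrix around cells, and integrins are the paired alpha and beta receptors through which cells hold on to it. Members were taken by symbol from the named rows of an array table, as collagen chains (COL, a number, A, a number), laminin chains (LAMA, LAMB and LAMC) and integrin subunits (ITGA, and ITGB1 to ITGB8), with 1 row per gene. This gave 75 of 17760 named genes, made up of 39 collagen, 10 laminin and 26 integrin genes. COL4A2, COL4A3, COL17A1, COL22A1, COL26A1 and LAMA3 were not analysed here.

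Laminins and type IV collagen are the 2 networks of the basement membrane, the sheet on which epithelia such as the neural plate rest. A laminin is a trimer of an alpha, a beta and a gamma chain, assembled inside the cell, whereas type IV collagen joins into a covalent mesh after secretion. Fibrillar collagens such as type I form the ropes of connective tissue, and beaded or transmembrane collagens link matrix and cell surface. Integrins with ITGB1 as their beta chain bind laminins, collagens or fibronectin according to their alpha chain, and pluripotent stem cells attach to laminin mainly through ITGA6 with ITGB1.

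H1 cells, an established human embryonic stem cell line, were turned towards a neural stem cell fate with dorsomorphin, an inhibitor of BMP type I receptors and of AMPK, and sampled at 12, 24, 36, 48 and 72 h after its start and at 0 h. Each time had 4 Illumina bead arrays, numbered as replicates 1 to 4 and 24 in all. All cells had been grown to confluency on Matrigel, a mouse basement membrane extract, and the treatment began together with a change from a stem cell medium to one with serum replacement. No untreated cells were sampled later, so time in culture, the medium and the compound cannot be told apart, and nothing in the labels makes the 4 replicates of a time independent cultures, so the p-values cover no more than the spread among arrays. The labelled state was checked with 3 genes. POU5F1, the core pluripotency factor, averaged 10.55 ± 0.29 at 72 h and 12.36 ± 0.09 at 0 h on the log2 scale (SD, n = 4 each), PAX6, a neuroectoderm factor, 9.85 ± 0.55 at 72 h and 6.72 ± 0.32 at 0 h, and SOX2, a factor of both states, 13.20 ± 0.23 at 72 h and 12.07 ± 0.31 at 0 h. All 3 passed the test (adjusted p at most 1.2e-05).

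Values are log2 signals as deposited, so a difference of 1 is a 2-fold change, and a level may be set against the same gene at another time but not against another gene, whose probe differs. Background was 7.10, the level below which 99% of the values of 387 olfactory receptor measurements lay. A gene above it on at least 4 of 24 arrays was tested, in a model with a mean for each time (limma) and Benjamini-Hochberg adjustment over all 10215 genes tested. Passing means an adjusted p under 0.05. Arrays of the same time correlated at r between 0.975 and 0.992. In bulk RNA, fewer cells of a type and less RNA per cell cannot be told apart.

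There were 6 arrays, 1 at each time, that stood apart from the other 18, with CLEC2A, a C-type lectin gene, at 7.17 to 7.56 against 9.10 to 10.71. They were replicate 2 at 0, 24 and 72 h and replicate 4 at 12, 36 and 48 h. Their deviations from the mean of their time correlated in all 15 pairs, at r between 0.26 and 0.58. Of the 41 members tested, 8 lay above the mean of the other 3 arrays of their time on all 6 of these arrays. These 8 were COL4A6, COL6A1, COL7A1, COL9A1, COL9A2, ITGA6, ITGAE and LAMB1. COL1A1 and LAMC3 lay below that mean on all 6. The share of all genes tested that did either was not counted. Since each time had 1 such array, each group mean holds the same number of them, and results are also given without them where that changes a call.

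Of the 75 members, 41 were tested and 34 stayed dim, where 7545 of all 17760 named genes did. Of the dim members 29 were above background on no array, and COL12A1, COL20A1, COL27A1, COL6A5 and ITGA11 were above it on 1 to 3 arrays. Among the members tested, 27 were above background on all 24 arrays. The share tested was 22 of 39 collagens, 6 of 10 laminins, 10 of 18 alpha integrins and 3 of 8 beta integrins. COL3A1, which accompanies type I collagen in connective tissue, the laminin chains LAMA4 of vessels and muscle and LAMB3 of skin, the integrins ITGA1 and ITGA3, and ITGB3, ITGB4 and ITGB8 were all dim. The integrin ITGA9, above background on 4 arrays, stood just inside the limit, and COL6A5, above it on 3, just outside. A dim row does not show that a gene is silent. For COL4A6, 1 measurement was above background on all 24 arrays and another on 0.

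At 72 h against 0 h, 20 of the 41 members tested passed, 48.8%, against 35.9% of all genes tested. Higher were 11 and lower 9, where 18.5% of all genes tested were higher and 17.4% lower. The rises were those of COL4A1, COL4A5, COL4A6, COL5A1, COL7A1, COL9A2, COL13A1, LAMA1, LAMB1, ITGA5 and ITGA6, and the falls those of COL2A1, COL5A2, COL6A1, COL6A2, COL6A3, COL23A1, LAMC3, ITGA2B and ITGB5. Among collagens 13 of 22 passed (7 higher, 6 lower), among laminins 3 of 6 and among integrins 4 of 13. The median change of the members was -0.06, against 0.01 over all genes tested, and their median absolute change was 0.31 against 0.21. Of the 41 members, 5 passed with a change of at least 2-fold, COL4A5, COL4A6, COL13A1, ITGA5 and LAMC3, where 419 of 10215 genes tested did. The 4 arrays of 72 h and the 4 of 0 h did not overlap for 18 members, where this held for 31.1% of all genes tested.

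**Figure D1:**
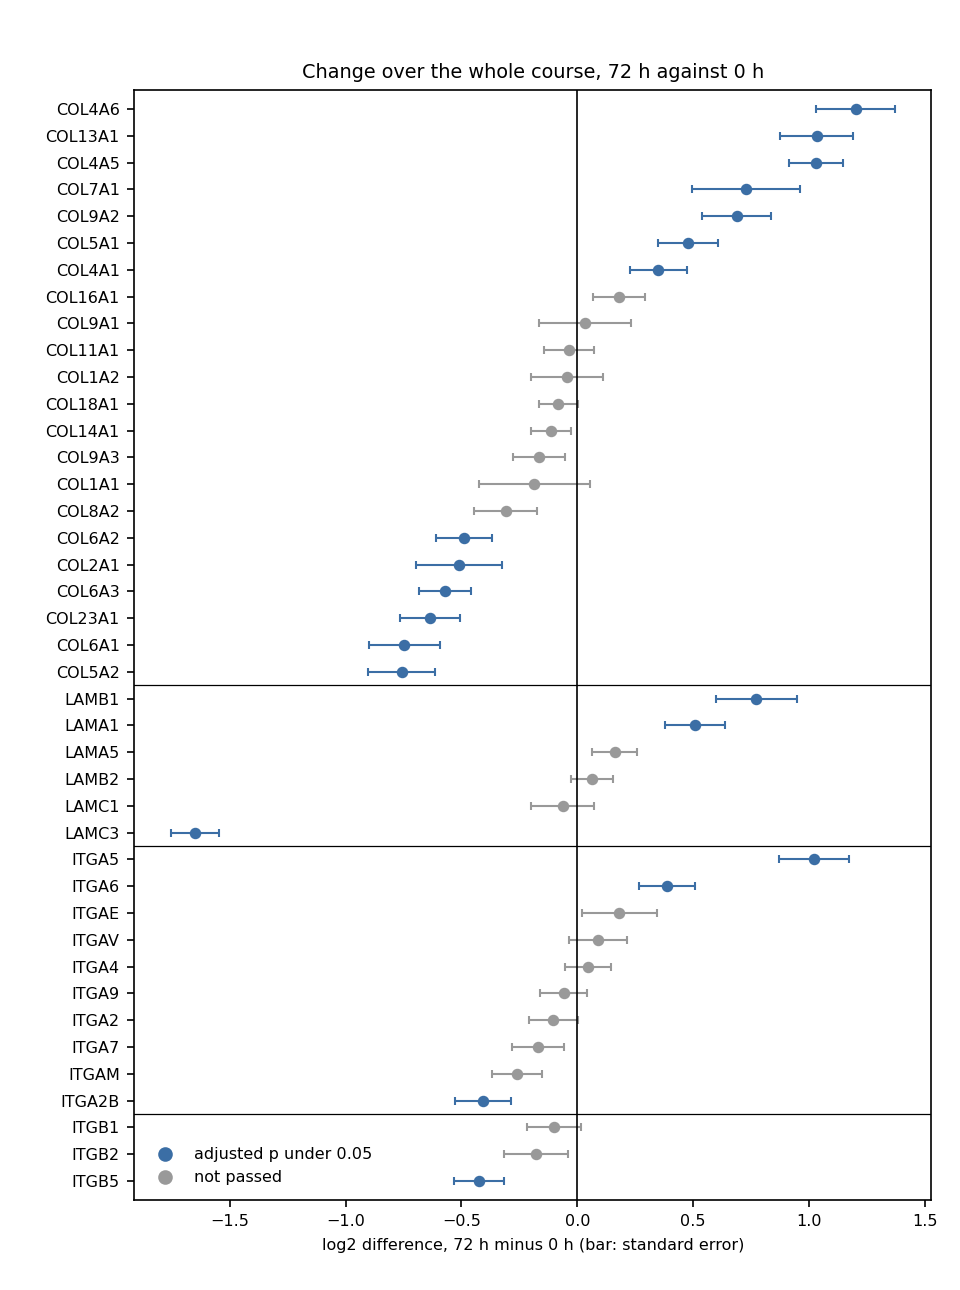
Log2 difference between 72 h and 0 h for the 41 members tested, grouped from the top as collagens, laminins, alpha integrins and beta integrins, with bars for the standard error (n = 4 arrays at each time). Blue points passed the test and grey points did not; LAMC3 stands farthest to the left at -1.65 and COL4A6 farthest to the right at 1.20.

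All 20 calls had the same sign in the array low in CLEC2A and in the mean of the other 3 arrays per time. The calls were made on these same arrays, so equal sign is no independent check of them. Leaving out 1 array at a time ended 4 of the 20 calls. COL2A1 did not pass when replicate 2 or 4 of 0 h or replicate 3 or 4 of 72 h was omitted (adjusted p 0.0928 to 0.133), COL4A1 when replicate 1 or 3 of 0 h or 1 or 2 of 72 h was (0.0683 to 0.086), COL7A1 when replicate 1 of 0 h or 4 of 72 h was (0.0516 to 0.0569), and ITGA6 when replicate 4 of 0 h was (0.0544). Without the 6 arrays low in CLEC2A, COL4A1 stood at 0.32 (adjusted p = 0.0705) and ITGB5 at -0.31 (adjusted p = 0.0614). With p adjusted over the 9 comparisons together, COL2A1 (adjusted p = 0.0705) and COL4A1 (adjusted p = 0.0587) did not pass. Nor did COL2A1 with no filter on low values (adjusted p = 0.0501).

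**Figure D2:**
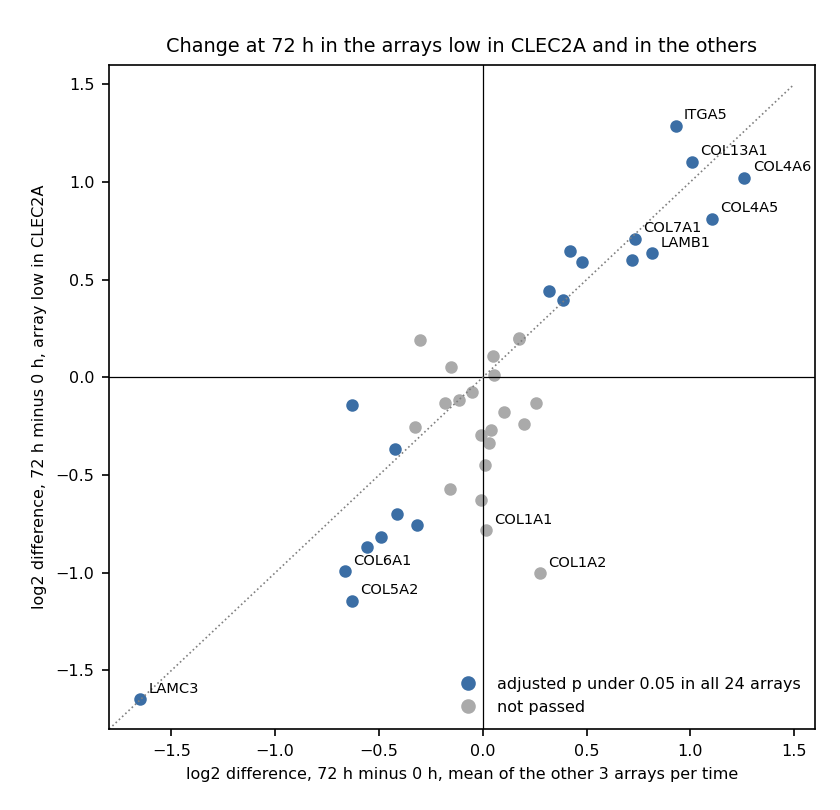
Log2 difference between 72 h and 0 h in the array low in CLEC2A (vertical axis, 1 array per time) against the same difference in the mean of the other 3 arrays (horizontal axis), for the 41 members tested; blue points passed in all 24 arrays and the dotted line marks equality. The 20 blue points lie in the 2 quadrants of equal sign, and COL1A1 stands at -0.78 in the first set and 0.01 in the second.

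Among the chains of type IV collagen, COL4A5, COL4A6 and COL4A1 were the 3 tested, and all 3 were higher at 72 h; COL4A4 stayed dim. COL4A1 encodes the chain of the common network, in which it pairs with the product of COL4A2. COL4A5 and COL4A6 encode chains that assemble with each other, and the 2 genes lie head to head on the X chromosome. Their RefSeq promoter windows (GRCh38.p14, from 250 bases before to 50 after the start) are shown because both genes rose by 72 h and their windows overlap by 121 bases on opposite strands; that of COL4A1 is shown beside them and overlaps the window of COL4A2 by 226 bases. Capitals mark the 2 motifs searched on both strands, the CTC box (CCCTCCCCC or CCCTTCCCC) and CCAAT, each read 5′ to 3′ on the gene's own strand.
COL4A5, plus strand, chrX:108439588-108439887: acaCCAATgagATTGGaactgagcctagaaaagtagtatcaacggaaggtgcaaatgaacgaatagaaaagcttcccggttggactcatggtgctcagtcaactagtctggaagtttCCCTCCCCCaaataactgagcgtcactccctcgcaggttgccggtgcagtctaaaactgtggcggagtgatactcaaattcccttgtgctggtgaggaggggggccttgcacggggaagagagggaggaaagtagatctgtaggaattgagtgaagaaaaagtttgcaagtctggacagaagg
COL4A6, minus strand, chrX:108439409-108439708: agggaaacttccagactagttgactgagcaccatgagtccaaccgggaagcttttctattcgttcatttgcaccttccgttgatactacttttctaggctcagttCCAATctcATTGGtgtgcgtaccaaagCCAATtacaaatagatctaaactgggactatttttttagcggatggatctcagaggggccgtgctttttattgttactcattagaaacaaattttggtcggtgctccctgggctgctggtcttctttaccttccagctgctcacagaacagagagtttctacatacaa
COL4A1, minus strand, chr13:110307108-110307407: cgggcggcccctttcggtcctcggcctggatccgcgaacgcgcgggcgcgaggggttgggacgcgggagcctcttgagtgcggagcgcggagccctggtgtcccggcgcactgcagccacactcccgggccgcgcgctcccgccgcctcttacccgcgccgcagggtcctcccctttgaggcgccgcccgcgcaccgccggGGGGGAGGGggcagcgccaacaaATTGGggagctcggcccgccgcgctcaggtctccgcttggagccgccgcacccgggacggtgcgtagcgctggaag
The COL4A5 window held 1 CTC box and 2 CCAAT, that of COL4A6 0 and 3, and that of COL4A1 1 and 1. The COL4A6 window ends inside the CTC box of the COL4A5 window, so its count of 0 comes from where that window was drawn. Over all 35116 windows in the table, 7.79% held a CTC box and 34.6% a CCAAT. Of the 38 windows of 29 of the 41 members tested, 8 held a CTC box and 7 a CCAAT. A second RefSeq window of COL4A6 is not shown.

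COL4A6 was at 9.78, 9.94, 9.41 and 9.75 on the 4 arrays of 72 h, against 8.39, 8.92, 8.19 and 8.56 at 0 h. Every array of 72 h lay above every array of 0 h. Its means over the course were 8.52, 8.33, 8.41, 8.63, 8.90 and 9.72 at 0, 12, 24, 36, 48 and 72 h, and the rise at 72 h was 1.20 ± 0.17 (SE; 2.30-fold; adjusted p = 4.6e-06). No earlier time passed against 0 h, while the step between 48 and 72 h did (0.81 ± 0.17, adjusted p = 0.00328). A second COL4A6 measurement on the array lay below background on all 24 arrays.

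COL4A5 was at 11.09, 10.72, 10.79 and 10.75 at 72 h, against 9.76, 9.91, 9.64 and 9.92 at 0 h, again without overlap. It moved earlier than COL4A6 in its calls, since it passed at 48 h (0.62 ± 0.12, adjusted p = 3.3e-04) and at 72 h (1.03 ± 0.12, adjusted p = 1.7e-07), although the times of the 2 genes were not tested against each other. A second, dimmer COL4A5 measurement averaged 8.30 at 72 h and 7.54 at 0 h, the same direction. COL4A1 was at 11.55, 11.55, 11.25 and 11.31 at 72 h, against 10.98, 11.11, 10.97 and 11.20 at 0 h, and its 4 times between lay below 0 h, at means of 10.75 to 10.90, without passing. Its 72 h rise was 0.35 ± 0.12 (adjusted p = 0.0276) and the step between 48 and 72 h 0.63 ± 0.12 (adjusted p = 0.00192). COL18A1, a basement membrane collagen from which endostatin is cut, averaged 10.63 ± 0.14 at 72 h and 10.72 ± 0.09 at 0 h and passed at no time.

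Of the 6 laminin chains tested, LAMA1 and LAMB1 were higher and LAMC3 lower at 72 h, and LAMA5, LAMB2 and LAMC1 did not pass there. LAMC3, the gamma chain found in the retina, the cortical surface and some basement membranes, had the largest 72 h change of the 41 members tested. It was at 9.04, 8.77, 8.91 and 8.72 at 0 h, at 8.69, 8.39, 8.53 and 8.43 at 12 h, at 8.40, 8.36, 8.25 and 8.47 at 24 h, at 8.10, 8.35, 8.07 and 7.97 at 36 h, at 7.80, 8.03, 7.82 and 7.59 at 48 h, and at 7.18, 7.12, 7.38 and 7.15 at 72 h. The mean was lower at each time than at the one before, and all arrays of 72 h were still above background. Against 0 h it passed at every time, from -0.35 ± 0.10 at 12 h (adjusted p = 0.0454) to -1.65 ± 0.10 at 72 h (3.14-fold lower; adjusted p = 1.3e-11). The calls at 24, 36, 48 and 72 h stood whichever array was left out, and the one at 12 h was lost in 13 of 24 such fits, among them those omitting any array of 0 h but replicate 2 or any array of 12 h but replicate 1. LAMC1, the gamma chain shared by most laminins, did not pass at any time, at 11.70, 11.76, 11.69 and 11.61 at 72 h, against 11.72, 12.10, 11.37 and 11.83 at 0 h (-0.06 ± 0.14, adjusted p = 0.759).

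LAMA1 is the alpha chain of the laminin of the early embryo, and it had a dip before its rise. At 12 h its arrays stood at 8.98, 9.16, 8.98 and 9.08, against 9.72, 9.73, 9.15 and 9.53 at 0 h (-0.49 ± 0.13, adjusted p = 0.0236), a call that omitting replicate 1, 2 or 4 of 0 h or 1 or 4 of 12 h ended. At 72 h they stood at 10.17, 10.33, 9.73 and 9.95, a rise of 0.51 ± 0.13 (adjusted p = 0.00297) in which the lowest array of 72 h lay level with the highest of 0 h. The beta chain LAMB1 was at 8.49, 8.79, 8.47 and 8.87 at 72 h, against 7.99, 8.15, 7.77 and 7.61 at 0 h. It passed at 48 h (0.70 ± 0.18, adjusted p = 0.00521) and at 72 h (0.77 ± 0.18, 1.71-fold, adjusted p = 0.00122). LAMA5, the alpha chain of the laminin that stem cells themselves lay down, was higher in the middle of the course only in its calls, at 24 h (0.40 ± 0.10, adjusted p = 0.011) and 48 h (0.51 ± 0.10, adjusted p = 4.3e-04). Its means were 12.37, 12.37, 12.77, 12.63, 12.87 and 12.53 from 0 to 72 h, and it was lower at 72 h than at 48 h (-0.34 ± 0.10, adjusted p = 0.0312). Omitting replicate 3 of 0 h ended the 24 h call (adjusted p = 0.0534), and omitting replicate 1 or 3 of 48 h or 1 or 2 of 72 h ended that of the last step. LAMB2, the beta chain of synapses and kidney, averaged 8.37 ± 0.09 at 72 h and 8.31 ± 0.11 at 0 h and passed at no time.

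**Figure D3:**
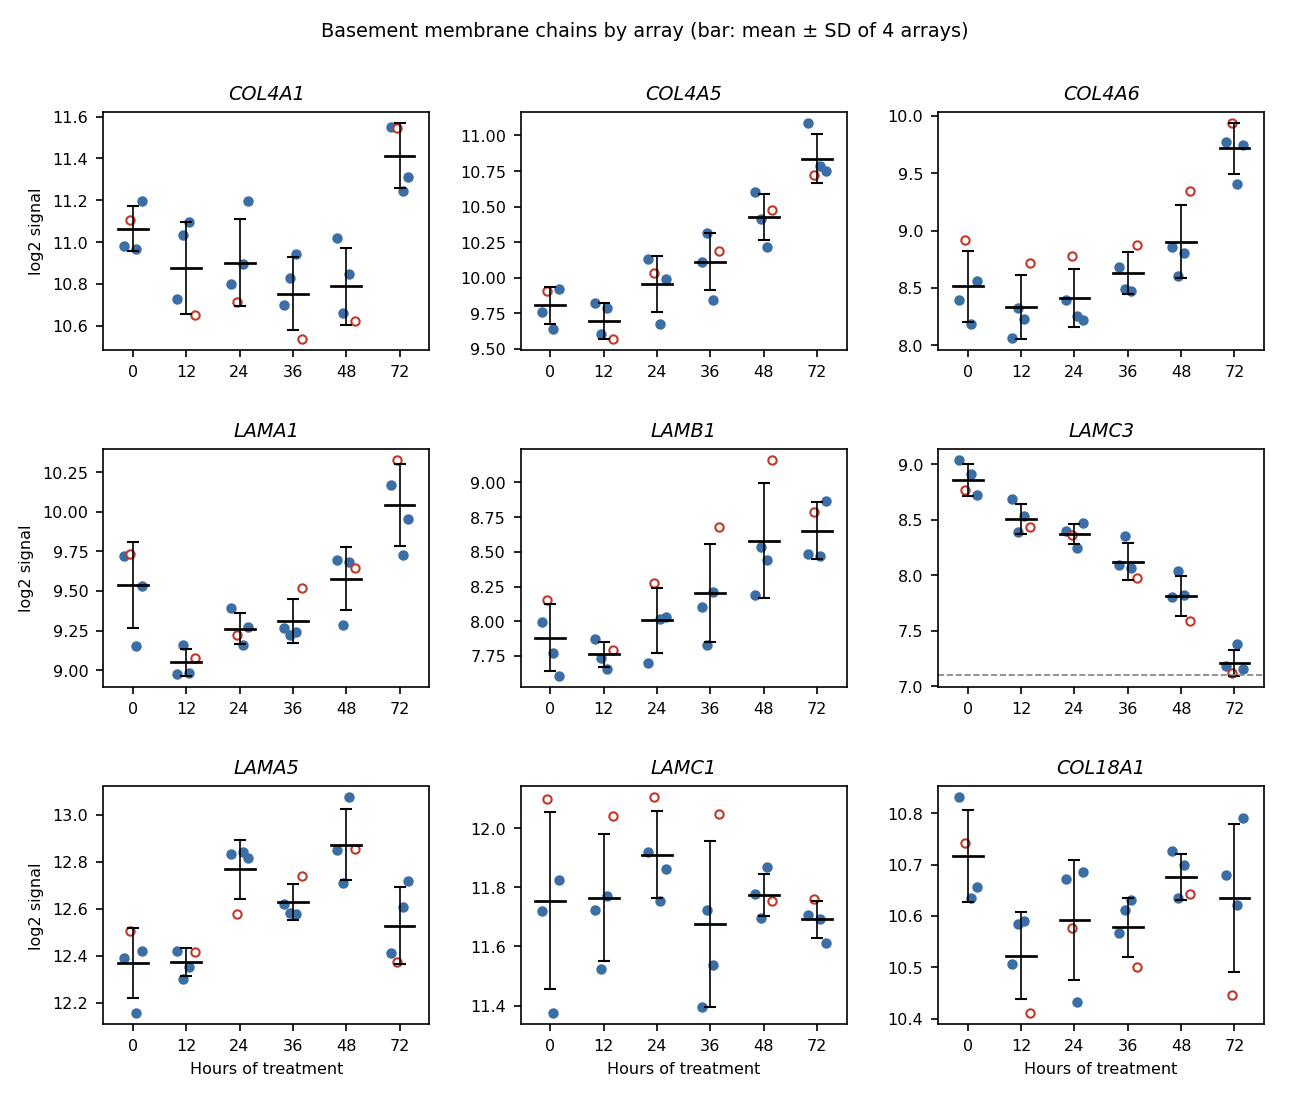
Log2 signal of 9 basement membrane genes on each array (points) at 6 times, with the mean and SD of 4 arrays (black bars); open red points are the 6 arrays low in CLEC2A and the dashed line, drawn where the axis reaches it, is the background. COL4A5 and COL4A6 are highest at 72 h, LAMC3 approaches the background at 72 h, and LAMC1 and COL18A1 passed at no time.

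Type I collagen was highest in the middle of the course. COL1A1 was at 10.74, 10.18, 10.79 and 10.13 at 0 h, at 11.16, 10.57, 11.15 and 10.52 at 12 h, at 11.53, 10.89, 11.36 and 11.54 at 24 h, at 11.36, 11.54, 11.48 and 11.18 at 36 h, at 11.50, 11.68, 11.67 and 10.98 at 48 h, and at 10.19, 9.40, 10.79 and 10.73 at 72 h. It stood above 0 h at 24 h (0.87 ± 0.24, adjusted p = 0.0252), 36 h (0.93 ± 0.24, adjusted p = 0.00769) and 48 h (1.00 ± 0.24, adjusted p = 0.00345), and was lower at 72 h than at 48 h by 1.18 ± 0.24 (adjusted p = 0.0024). At 72 h the difference from 0 h was -0.19 ± 0.24 (adjusted p = 0.584). The 72 h change was -0.78 in the array low in CLEC2A and 0.01 in the others. Omitting replicate 2 or 4 of 0 h or replicate 1, 3 or 4 of 24 h ended the 24 h call, with adjusted p of 0.0549 to 0.078. COL1A2, its partner chain, passed at 48 h alone (0.43 ± 0.16, adjusted p = 0.049), a call that 17 of the 24 fits without 1 array did not keep, all except those omitting replicate 2 of 0 h, 2 or 4 of 12 h, 1 or 2 of 24 h and 2 or 3 of 72 h.

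The other fibrillar chains were split. COL5A1 and COL5A2 encode the chains of type V collagen, which sets the width of type I fibrils. COL5A1 was at 9.01, 9.24, 8.81 and 8.84 at 72 h, against 8.67, 8.59, 8.49 and 8.25 at 0 h (0.48 ± 0.13, adjusted p = 0.00551). COL5A2 was at 7.67, 7.72, 7.73 and 7.83 at 72 h, against 8.56, 8.86, 8.07 and 8.49 at 0 h (-0.76 ± 0.14, 1.69-fold lower, adjusted p = 1.8e-04). The 2 chains of 1 collagen type thus moved in opposite directions, each without overlap between 72 h and 0 h. COL5A2 had passed from 24 h on, though at 24 h not without replicate 2 of 0 h or 1 of 24 h, and was lowest at 48 h (-1.06 ± 0.14, adjusted p = 6.1e-06). COL2A1, the collagen of cartilage and notochord, was likewise lowest at 48 h, where only 1 array was above background (-1.09 ± 0.19, adjusted p = 1.2e-04). At 72 h it was at 7.58, 8.06, 7.12 and 7.21, against 7.71, 8.20, 7.86 and 8.24 at 0 h, with overlapping arrays (-0.51 ± 0.19, adjusted p = 0.0343). A second, dim COL2A1 measurement, above background on 2 arrays, averaged 6.88 at 72 h and 6.83 at 0 h.

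Type VI collagen forms beaded filaments from the products of COL6A1, COL6A2 and COL6A3, and all 3 genes fell at 72 h. COL6A1 was at 8.13, 8.38, 8.39 and 8.57 at 72 h, against 9.14, 9.37, 8.85 and 9.10 at 0 h (-0.75 ± 0.15, 1.68-fold lower, adjusted p = 4.4e-04). It passed at no earlier time. COL6A3 was at 7.06, 7.18, 7.11 and 7.14 at 72 h, against 7.51, 8.0, 7.45 and 7.81 at 0 h (-0.57 ± 0.11, adjusted p = 3.3e-04), and COL6A2 fell by 0.49 ± 0.12 (adjusted p = 0.00257) to a level above background on 1 of 4 arrays. At 72 h COL6A3 was above background on 3 of 4 arrays, so the background may limit the size of both falls. COL6A2 and COL6A3 had already passed at 48 h, at -0.41 ± 0.12 and -0.44 ± 0.11, the call of COL6A2 ending on omission of replicate 4 of 0 h or 4 of 48 h. COL6A5 and COL6A6 were dim.

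Of the collagens that sit in or beside the cell membrane, COL13A1 rose and COL23A1 fell. COL13A1, a transmembrane collagen of adhesion sites and the neuromuscular junction, was at 6.58, 6.67, 7.02 and 6.74 at 12 h, all below background, against 7.61, 7.25, 7.33 and 7.47 at 0 h, at least 1.25-fold lower (adjusted p = 0.0116). Without replicate 1 at 0 h the adjusted p of that call was 0.0544, and with dim values held at the background the change was -0.32 (adjusted p = 0.254), so that either ended it. At 48 h COL13A1 reached 8.52, 8.43, 8.59 and 8.98 (1.21 ± 0.16 above 0 h, adjusted p = 3.0e-06) and at 72 h it was at 8.23, 8.35, 8.52 and 8.69 (1.03 ± 0.16, 2.04-fold, adjusted p = 1.3e-05). Its 36 h values of 8.31, 7.69, 8.03 and 8.38 had also passed against 0 h. COL23A1, another transmembrane collagen, was at 7.16, 7.07, 7.30 and 7.26 at 72 h, against 8.06, 7.93, 7.37 and 7.97 at 0 h (-0.64 ± 0.13, adjusted p = 3.6e-04). Its 72 h values lay near the background, above it on 3 of 4 arrays.

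COL7A1, the collagen of the anchoring fibrils below epithelia, was the only collagen of the 22 tested that passed as higher at 12 h. Its arrays stood at 9.51, 9.55, 9.13 and 10.01 at 12 h, against 8.39, 8.80, 8.91 and 8.41 at 0 h (0.92 ± 0.23, adjusted p = 0.0172), a call ended by omitting replicate 1 or 4 of 0 h or 4 of 12 h. It was highest at 36 h, at 9.62, 9.50, 10.35 and 10.54 (1.38 ± 0.23, adjusted p = 1.5e-04), and remained higher at 72 h at 9.18, 9.51, 9.07 and 9.66 (0.73 ± 0.23, adjusted p = 0.0159). COL9A2, a collagen on the surface of cartilage fibrils, was at 7.75, 7.76, 7.24 and 7.58 at 72 h, all above background, against 6.92, 7.16, 6.73 and 6.78 at 0 h, of which 1 was (0.69 ± 0.15, adjusted p = 7.1e-04). COL9A1 and COL9A3, whose products join that of COL9A2 in type IX collagen, passed at no time. COL16A1 passed at 36 h alone (0.38 ± 0.11, adjusted p = 0.0215) and COL14A1 at 48 h alone, where all its arrays were below background (at least 1.06-fold lower, adjusted p = 0.0214). With dim values held at the background the COL14A1 change was -0.090 (adjusted p = 0.178), which ended its call. Both calls ended in 4 of the 24 fits without 1 array, those omitting replicate 1 or 4 of 0 h or 1 or 2 of 36 h for COL16A1, and those omitting replicate 2 or 4 of 0 h or 1 or 2 of 48 h for COL14A1.

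Of the 13 integrin subunits tested, ITGA5 and ITGA6 were higher and ITGA2B and ITGB5 lower at 72 h. ITGA5, whose product pairs with that of ITGB1 as the main fibronectin receptor, was at 9.0, 9.36, 9.01 and 8.67 at 72 h, against 8.23, 8.07, 7.68 and 7.98 at 0 h. The rise was 1.02 ± 0.15 (2.03-fold, adjusted p = 9.6e-06), and it came in steps that passed between 36 and 48 h (0.55 ± 0.15, adjusted p = 0.0336) and between 48 and 72 h (0.58 ± 0.15, adjusted p = 0.0196). The first step ended on omitting any of replicates 1, 2 and 3 of 36 h or 1 and 4 of 48 h, the second on omitting replicate 2 or 3 of 48 h or 1 or 2 of 72 h. Before 48 h no time passed, and the 36 h arrays, at 7.97, 7.80, 7.81 and 7.93, lay within the range of 0 h. ITGA6, the laminin receptor chain, was at 8.58, 8.75, 8.79 and 8.48 at 72 h, against 8.35, 8.36, 8.27 and 8.08 at 0 h (0.39 ± 0.12, adjusted p = 0.0133), a small shift without overlap.

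ITGB5 pairs with ITGAV in a vitronectin receptor, and was lowest at 36 h. Its arrays stood at 10.31, 10.54, 10.63 and 10.53 at 36 h, against 11.39, 11.55, 11.05 and 11.31 at 0 h (-0.82 ± 0.11, adjusted p = 6.7e-06). At 72 h they stood at 10.89, 10.79, 10.91 and 11.00 (-0.42 ± 0.11, adjusted p = 0.00307), still below every array of 0 h. Its partner ITGAV did not pass at any time, at 9.66, 9.29, 9.57 and 9.73 at 72 h, against 9.32, 9.53, 9.50 and 9.55 at 0 h. ITGA2B, the alpha chain of the platelet fibrinogen receptor, was below background on all arrays of 36 h (at least 1.26-fold lower than at 0 h, adjusted p = 3.2e-04) and above it on 1 array at 72 h (-0.41 ± 0.12, adjusted p = 0.0104).

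ITGB1, the beta chain shared by most matrix receptors, was at 12.42, 12.32, 12.42 and 12.49 at 72 h, against 12.56, 12.27, 12.45 and 12.77 at 0 h (-0.10 ± 0.12, adjusted p = 0.548). A second measurement of ITGB1, above background on all 24 arrays, averaged 10.53 at 72 h and 10.82 at 0 h. The first passed at 36 h alone (-0.37 ± 0.12, adjusted p = 0.0285), a call ended by omitting replicate 1 or 4 of 0 h or 1 or 4 of 36 h. ITGA2, a collagen receptor chain, ITGA7, a laminin receptor chain of muscle, and ITGAE, a receptor chain for E-cadherin, passed at no time, with 72 h changes of -0.10, -0.17 and 0.18. ITGA4, ITGA9, ITGAM and ITGB2 did not pass either.

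**Figure D4:**
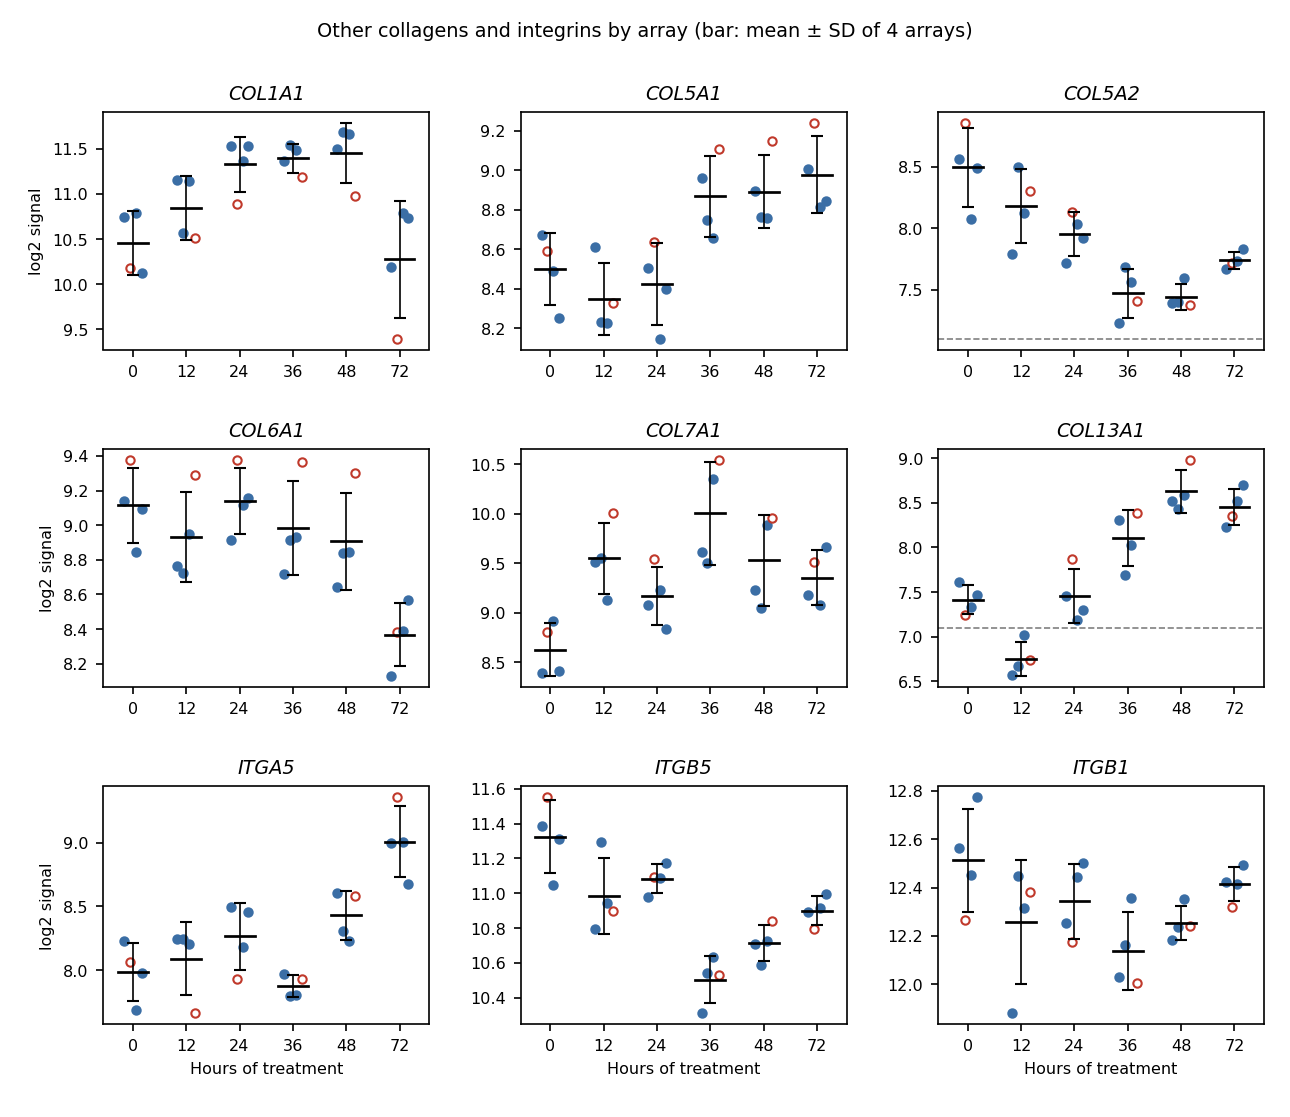
Log2 signal of 9 further collagen and integrin genes on each array (points) at 6 times, with the mean and SD of 4 arrays (black bars); open red points are the 6 arrays low in CLEC2A and the dashed line, drawn where the axis reaches it, is the background. COL1A1 is highest between 24 and 48 h, COL5A2 and ITGB5 are lowest at 36 or 48 h, and ITGA5 is highest at 72 h.

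Over the course the calls among members numbered 4 at 12 h, 4 at 24 h, 11 at 36 h, 18 at 48 h and 20 at 72 h, each against 0 h, and these comparisons share the 0 h arrays. Of all genes tested, 6.08%, 7.21%, 17.0%, 21.2% and 35.9% passed at those times, so that the members' shares of 9.76%, 9.76%, 26.8%, 43.9% and 48.8% stood above these at each, those at 12 and 24 h resting on 4 genes. The 13 integrins tested stood at 0%, 0%, 23.1%, 23.1% and 30.8%, below all genes tested at 12, 24 and 72 h. At 12 h COL7A1 was higher and COL13A1, LAMA1 and LAMC3 lower; of all genes tested 2.76% were higher and 3.32% lower. Omitting replicate 1 of 0 h left 0 of these calls, and omitting replicate 4 of 0 h or 4 of 12 h left 1. At 24 h COL1A1 and LAMA5 were higher and COL5A2 and LAMC3 lower (3.97% and 3.24% of all genes tested), a count of 2 when replicate 1 of 24 h was omitted. At 36 h, 4 members were higher and 7 lower (7.96% and 9.07%), and the total of 11 was 7 when replicate 4 of 0 h or 1 of 36 h was omitted. At 48 h, 9 were higher and 9 lower (10.7% and 10.5%). Arrays of the later time and of 0 h did not overlap for 8.58%, 10.7%, 17.4% and 20.8% of all genes tested at 12, 24, 36 and 48 h, and for 4, 3, 13 and 13 of the 41 members. Without the 6 arrays low in CLEC2A, LAMA1 and LAMC3 did not pass at 12 h, COL5A2 at 24 h, COL16A1 and COL23A1 at 36 h, or COL5A1, COL6A2, COL6A3 and COL14A1 at 48 h.

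Between successive times, 2 of the 41 members passed from 12 to 24 h, 7 from 24 to 36 h, 2 from 36 to 48 h and 10 from 48 to 72 h. These were 4.88%, 17.1%, 4.88% and 24.4% of the members, against 6.57%, 14.4%, 5.27% and 6.21% of all genes tested. Both genes of the first interval, COL13A1 and LAMA5, were higher at the later time, where 3.32% of all genes tested were higher and 3.25% lower. In the next COL5A1, COL7A1, COL13A1 and COL16A1 were higher and COL5A2, ITGA2B and ITGB5 lower (6.90% and 7.46%), and in the third COL13A1 and ITGA5 were higher (2.90% and 2.37%). In the last interval COL4A1, COL4A5, COL4A6, COL9A2, ITGA5 and LAMA1 were higher at 72 h than at 48 h, and COL1A1, COL6A1, LAMA5 and LAMC3 lower (2.69% and 3.51%). Without the 6 arrays low in CLEC2A, COL4A5, COL6A1, LAMA1 and LAMA5 did not pass there, nor did COL5A2 (-0.40, adjusted p = 0.0908) and COL16A1 (0.35, adjusted p = 0.0813) between 24 and 36 h, or COL13A1 between 36 and 48 h (0.50, adjusted p = 0.0536). The last of these calls also ended with the background at the 95th percentile, with no filter on low values and with the mean of each gene's rows, at adjusted p of 0.0502 to 0.0649. With dim values held at the background, COL13A1 did not pass between 12 and 24 h (0.35, adjusted p = 0.165) nor ITGA2B between 24 and 36 h (-0.18, adjusted p = 0.22). That count of 10 was 5 when replicate 2 of 48 h or 2 of 72 h was omitted, 6 when replicate 3 of 48 h was, and 4 when replicate 1 of 72 h was. The 7 calls between 24 and 36 h became 3 on omitting replicate 4 of 24 h or 4 of 36 h, and 4 on omitting replicate 3 of 24 h or 1 of 36 h. Of the counts of 2, the first became 1 on omitting replicate 2 of 12 h or 1 or 4 of 24 h, and the third was 0 on omitting replicate 1, 2 or 3 of 36 h or 1 or 4 of 48 h, 1 on omitting replicate 4 of 0 h, 1, 2 or 4 of 12 h, 1 of 24 h, 3 of 48 h or 1, 2 or 3 of 72 h, and 3 on omitting replicate 2 of 48 h.

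In all, 26 of the 41 members passed at 1 or more times against 0 h and 15 at none. At 72 h only, 5 passed (COL4A1, COL4A6, COL6A1, COL9A2 and ITGA6). Another 6 passed earlier but not at 72 h (COL14A1, COL16A1, COL1A1, COL1A2, ITGB1 and LAMA5). How many of all genes tested fell into these classes was not counted, so no share can be set beside them. In the moderated F test over the 5 later times, 23 of 41 members varied, where 48.9% of all genes tested did: 16 of 22 collagens, 4 of 6 laminins and 3 of 13 integrins.

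**Figure D5:**
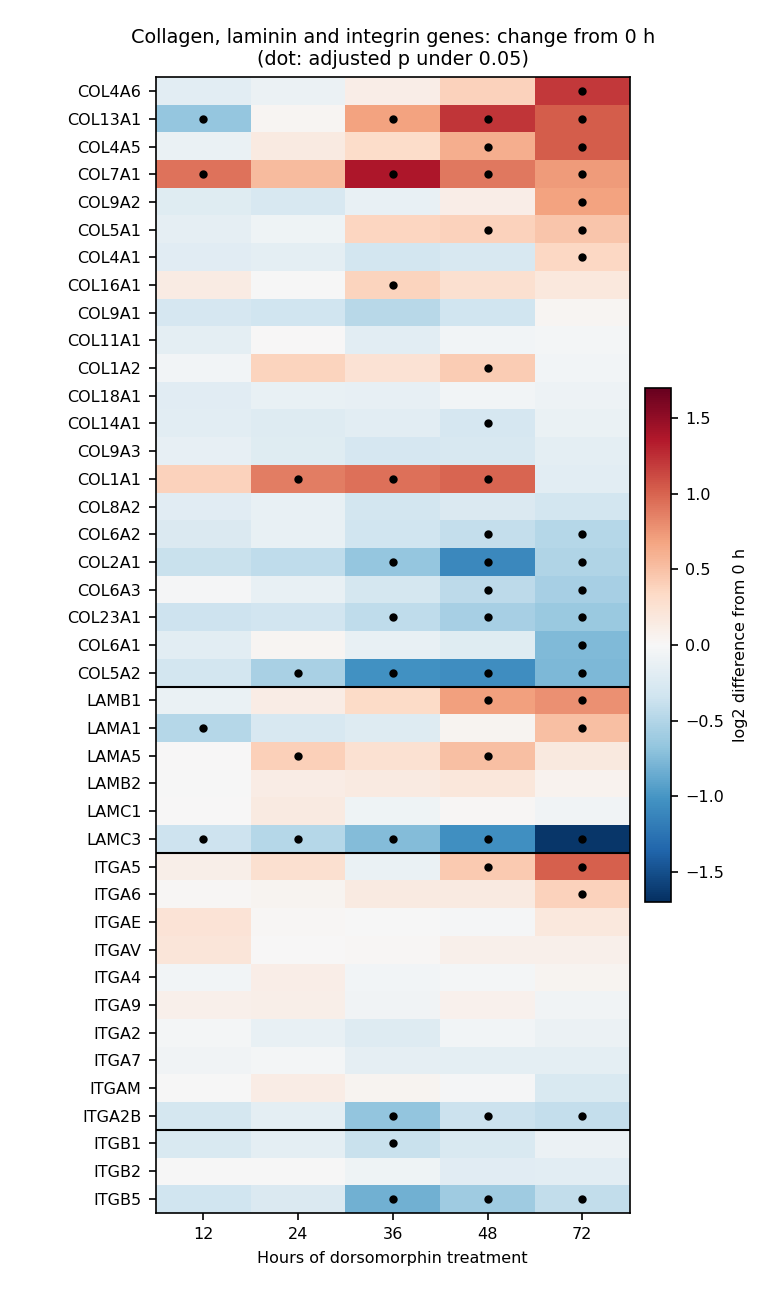
Log2 difference from 0 h of the 41 members tested (rows, grouped as collagens, laminins, alpha integrins and beta integrins and ordered by the 72 h change) at 5 later times (columns), red for higher and blue for lower. Dots mark an adjusted p under 0.05, numbering 4, 4, 11, 18 and 20 from left to right.

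Genes that work beside the members moved in both directions at 72 h. So did all genes tested, of which 35.9% passed, 18.5% higher and 17.4% lower. Of 16 matrix glycoproteins tested, 5 were higher and 6 lower, with a median change of -0.19 against 0.01 over all genes tested. FBN2, a fibrillin of embryonic microfibrils, averaged 11.83 ± 0.23 at 72 h and 10.32 ± 0.28 at 0 h (1.52 ± 0.22, adjusted p = 7.9e-06). FBLN1, which binds laminin and nidogen in basement membranes, averaged 12.16 ± 0.06 at 72 h and 10.92 ± 0.05 at 0 h (1.24 ± 0.13, adjusted p = 4.6e-08), SMOC1, a secreted calcium-binding glycoprotein that antagonises BMP in frog embryos, was dim on every array of 0 h and by 72 h at least 2.18-fold higher, and BGN, the proteoglycan biglycan, fell by 1.14 ± 0.17 (adjusted p = 7.0e-06). Of 21 collagen-modifying enzymes tested, 1 was higher and 3 lower. PLOD2, a lysyl hydroxylase for collagen crosslinks, fell by 0.62 ± 0.12, PCOLCE, which speeds procollagen cleavage, by 0.58 ± 0.12 and P3H1, a prolyl hydroxylase, by 0.31 ± 0.11, while PCOLCE2, a relative of PCOLCE, was higher by 0.61 ± 0.16.

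Of 20 genes of integrin adaptors and focal adhesions, 3 were higher and 7 lower, with a median change of -0.24. Over all genes tested, 18.5% were higher and 17.4% lower, with a median change of 0.01. The largest changes were those of CIB1, which binds the tail of the ITGA2B product, at -1.12 ± 0.10, BCAR1, a docking protein, at -0.96 ± 0.13, ZYX, the focal adhesion protein zyxin, at -0.80 ± 0.12, and TNS3, a tensin, at 0.77 ± 0.19. Of 8 other matrix receptors tested, 2 were higher and 1 lower. CD47, an integrin-associated receptor for thrombospondin, averaged 8.97 ± 0.13 at 72 h and 7.58 ± 0.17 at 0 h (1.39 ± 0.11, adjusted p = 5.5e-10), the collagen receptor kinase DDR1 changed by 0.36 ± 0.11 and the syndecan SDC4 by -0.45 ± 0.13. Of 15 matrix proteases and inhibitors, 3 were higher and 4 lower. TIMP4, an inhibitor of metalloproteinases, lay below background on all arrays of 72 h (at least 1.53-fold lower), and MMP9, a protease for type IV collagen, changed by -0.56 ± 0.10, MMP23B by -0.68 ± 0.19 and PLAU, the urokinase, by -0.49 ± 0.18.

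Markers of other cell types that make matrix were in part well above the background. The counts below stand beside 18.5% of all genes tested higher at 72 h and 17.4% lower. Of 11 fibroblast and mesenchyme markers, 2 were tested and 1 was higher at 72 h, FOXC2. The other, PDGFRB, was above background on 22 of 24 arrays, averaged 8.24 at 72 h and 8.46 at 0 h (adjusted p = 0.406), and was lower than at 0 h at 12 h (-0.72, adjusted p = 0.0236) and 48 h (-0.57, adjusted p = 0.0341). PRRX1, LUM, DCN, POSTN, FAP and TCF21 were above background on 0 arrays, and the summed signal of the list was 1344 to 1478 at 72 h and 1296 to 1522 at 0 h. Such sums add linear signals of all genes found in a list, dim ones included. They therefore hold background signal and weigh bright probes most. Of 9 endoderm markers, 2 were tested and AFP was lower, SOX17, GATA4, GATA6, FOXA2 and TTR were above background on 0 arrays, and the sum was 850.0 to 940.1 at 72 h and 946 to 1144 at 0 h. Of 7 endothelial markers, 2 were tested, TEK higher and KDR lower, and PECAM1, CDH5, TIE1, ERG and ESAM were above background on 0 arrays, with sums of 2048 to 2688 at 72 h and 1764 to 2083 at 0 h. TEK was above background on all 24 arrays and averaged 10.87 at 72 h and 10.31 at 0 h. Of 8 neural crest markers, 4 were tested, SOX10 being higher and FOXD3 and ERBB3 lower, with sums of 1296 to 1530 at 72 h and 1519 to 1622 at 0 h. None of 4 epidermal markers was tested, and 1 of 2 trophoblast markers tested was higher. Of 5 pluripotency markers 1 was higher and 4 lower, and of 9 neural plate markers 7 were higher. The part of such cells in the changes of the members was not tested.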

How the data were processed

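Total RNA of H1 cells was hybridised to Illumina HumanHT-12 v4 arrays, 4 for each of 6 times, per the labels. The deposited log2 values, from 5.57 to 15.51 in 37900 rows, were used; their scanner software, background correction and normalization: not given in the sources used here. Of the rows, 10159 shared all values with another row and were counted once, leaving 32487 measurements. A second table of intensity and p-value columns was not used because its 48 columns match no sample label; the authors deposited it with the log2 table. Gene symbols came from the platform annotation (26228 rows named, 26221 with 1 symbol and 7 with several, 11672 without a name), of which 26191 matched RefSeq with 0 symbols updated. A gene was represented by its row with the highest mean over 24 arrays; 11 members tested had several measurements, and second ones are given beside COL4A6, COL4A5, COL2A1 and ITGB1. Those of ITGB5 and COL6A2 that were not used were above background on at most 1 array.

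The model, run in limma 3.58.1 (R 4.3.3; lmFit, then eBayes), had a mean per time, used all 24 arrays and left 18 residual degrees of freedom. The 9 comparisons set each later time against 0 h and each time after 12 h against the one before. Tests were two-sided, adjusted within each comparison at a threshold of 0.05, and SE is that of the moderated fit. The fit was also run on simulated data whose arrays varied independently. Those data lack the shared deviations of the arrays low in CLEC2A, so they cannot show how these bear on the calls. Where all 4 arrays of a time were below background, the fold is given against the background as a bound. Tables and figures were made with Python 3.11.15. Precision is limited by the number of arrays.

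The members and gene lists were chosen with earlier results of these data known. In each family the rule names up to 6 genes with the largest change at 72 h and up to 3 in other comparisons, genes fixed by role, and those nearest the background limit, and in other lists up to 4; COL2A1, COL6A2, COL6A3, COL9A2, COL14A1, COL16A1, COL23A1 and the marker genes were named after their values were seen. The alternatives were other background limits and filters, the mean of a gene's rows, other normalizations and variance models, a replicate block, subsets of arrays and leaving out each array. Promoter sequences are RefSeq's (GRCh38.p14).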

Additional observations from a re-analysis of the deposited data

Results flagged for a closer look

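Within a time, 1 array was set against the other 3 wherever its gap to the nearest of them over the whole range exceeded Dixon's 95% critical value. Of 246 groups of 4 arrays, 10 held such an array, where chance flags about 1 in 20 groups, or 12.3. High arrays were COL23A1 at 48 h in replicate 1 (7.46, the others at most 7.21), COL5A2 at 48 h in replicate 3 (7.60, the others at most 7.40), COL6A2 at 24 h in replicate 1 (7.63, the others at most 7.34), COL9A1 at 36 h in replicate 4 (8.75, the others at most 8.01) and LAMA1 at 36 h in replicate 4 (9.52, the others at most 9.27). Low arrays were ITGA5 at 12 h in replicate 4 (7.66, the others at least 8.21), ITGAM at 48 h in replicate 2 (6.71, the others at least 7.09), LAMA1 at 48 h in replicate 2 (9.28, the others at least 9.65), LAMA5 at 24 h in replicate 2 (12.58, the others at least 12.82) and LAMB2 at 0 h in replicate 3 (8.14, the others at least 8.35). Of these 10 values, 4 lay on the arrays low in CLEC2A.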

How the results depend on the processing

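Among the 20 changes called at 72 h, every alternative that tested the gene kept the direction. Requiring at least 20 arrays above background left COL6A2, COL9A2 and ITGA2B untested. Of the values, 469 of 480 without 1 array and 278 of 297 under other alternatives stayed past the threshold. By gene, 16 of the 20 calls stood whichever array was left out, and 9 stood in every alternative that tested them. At 36 and 48 h, 4 of 11 and 4 of 18 calls did so, and at 12 and 24 h and over the intervals 0. The 72 h calls of COL5A1, COL6A1, COL6A2, COL23A1 and ITGA2B ended only in replicates 3 and 4 alone. That of LAMB1 ended only in replicates 1 and 2 alone. Without 1 array, the calls ranged from 0 to 6 at 12 h, 2 to 4 at 24 h, 7 to 15 at 36 h, 13 to 19 at 48 h and 18 to 21 at 72 h (9 to 11 higher, 8 to 10 lower), from 1 to 2, 3 to 7, 0 to 3 and 4 to 11 over the 4 intervals in order, and from 22 to 24 in the F test. Replicates 1 and 2 alone gave 2, 0, 6 and 8 calls at 12, 24, 36 and 48 h and 1, 0 and 0 over the first 3 intervals. Replicates 3 and 4 alone gave 0, 0, 6, 8 and 11 at the 5 times (7 higher and 4 lower at 72 h), 0, 3, 0 and 0 over the intervals and 14 in the F test. Without the 6 arrays low in CLEC2A, 2 members passed at 12 h, 1 from 36 to 48 h and 6 from 48 to 72 h. From 36 to 48 h the count was 1 with background at the 95th percentile, without a filter or with the mean of a gene's rows, and 5 with array weights; from 12 to 24 h it was 1 with dim values held at the background. With the mean of a gene's rows, COL2A1 stood at -0.23 (adjusted p = 0.24) and ITGB5 at -0.15 (adjusted p = 0.0818) at 72 h, since their other rows are dim. A term for the 6 arrays, added after seeing the data, gave 21 calls at 72 h.

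The replicate numbers did not meet the criterion for pairing, an r over 0.1 in every same-numbered pair: in their deviations same-numbered arrays correlated at -0.35 to 0.58 (median 0.076, over 0.1 in 29 of 60 pairs) and others at -0.46 to 0.53 (median -0.077, 52 of 180), and 14 of 24 arrays correlated best with one of their own number, a hint from the data and not the design. A replicate block gave 4, 4, 15, 17 and 21 calls at the 5 times.

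Uncalled 72 h changes turned sign as follows. Array weights gave 0.014 for COL1A2 and -0.051 for COL9A1. Replicates 1 and 2 alone gave 0.048 for ITGA9 and -0.054 for LAMA5. Replicates 3 and 4 alone gave 0.0008 for COL11A1, 0.060 for COL18A1, 0.30 for COL1A1, 0.36 for COL1A2 and 0.051 for LAMC1. Without the 6 arrays the values were 0.042 for COL11A1, 0.014 for COL1A1, 0.27 for COL1A2, 0.011 for ITGA2 and 0.029 for LAMC1. Without 1 array they ran between -0.14 and 0.056 for COL11A1, -0.36 and 0.11 for COL1A1, -0.14 and 0.12 for COL1A2, -0.12 and 0.21 for COL9A1, -0.17 and 0.025 for ITGA2, and -0.19 and 0.052 for LAMC1. Except where stated, the cause was not tested. Members near the background have little room to fall.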
